A study of Mus musculus with 17 samples.

Results

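The response of mouse dorsal root ganglia (DRGs) to nerve injury was compared between mice that lack *Mtor* in sensory neurons and control mice, gene by gene, as the interaction of injury and genotype. For each gene the interaction is the log2 change after injury in *Mtor-cKO* DRGs minus the log2 change in *Mtorfl/fl* DRGs, so a negative value is a smaller rise (or larger fall) without neuronal *Mtor*. All 17 of 17 libraries entered the contrast, and 13408 of 19152 genes in the table were tested, those with a mean of at least 1 FPKM (fragments per kilobase of transcript, scaled to library size) in at least 1 of the 4 groups. The *Mtor-cKO* mice carried Adv-Cre and homozygous floxed *Mtor* alleles (Adv-Cre::Mtorfl/fl), and their DRGs were taken 7 days after spared nerve injury (SNI; 4 libraries) or before surgery (baseline; 4 libraries). The *Mtorfl/fl* mice carried the same floxed alleles, as littermates without Cre, with 5 libraries at day 7 after SNI and 4 at baseline. The animals were C57BL/6 mice, and each library came from the L4 and L5 DRGs of both sides of 1 mouse. SNI was done on both sides in the mice used for sequencing. The Y-linked genes *Ddx3y*, *Kdm5d*, *Eif2s3y* and *Uty* summed to 31.5 to 39.9 FPKM in every library.

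SNI cuts 2 branches of the sciatic nerve and spares the other, and is a standard model of neuropathic pain. mTOR is the kinase at the core of a pair of complexes that couple nutrient and growth factor signals to protein synthesis, lipid synthesis and autophagy, and in injured sensory neurons it is known for its part in axon growth. Injured DRG neurons switch on transcription factors such as ATF3, growth-associated genes and neuropeptides, while macrophages, satellite glia and Schwann cells around them respond as well. *Adv-Cre* is driven by Advillin, which is expressed in peripheral sensory neurons, so the other cells of the ganglion keep *Mtor*. The controls carried no Cre, so Cre itself and loss of *Mtor* cannot be told apart, and with no sham-operated libraries among the 17, surgery and nerve injury cannot be told apart. In whole ganglia, fewer cells of a type and less RNA per cell cannot be told apart either.

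Read totals were even, between 17060876 and 21076542 expected counts a library. *Mtor* was at 3.44 to 5.83 FPKM in *Mtor-cKO* DRGs at day 7 and 3.16 to 6.36 FPKM at baseline, against 5.96 to 14.4 FPKM and 8.58 to 15.97 FPKM in *Mtorfl/fl* DRGs, with no overlap between the genotypes at either time. The interaction of *Mtor* itself was 0.19 ± 0.39 (log2 ± SE; edgeR quasi-likelihood test, adjusted p = 0.878). Transcripts that define sensory neurons were present in every library, *Prph* at 842 to 1200 FPKM and *Isl1* at 23.2 to 37.5 FPKM. *Avil*, the gene whose promoter drives Cre, was at 149 to 178 FPKM in the 8 *Mtor-cKO* libraries and 194 to 331 FPKM in the 9 *Mtorfl/fl* libraries. Before the results, 2 sets of libraries need to be named. *Mtorfl/fl* replicates 1 and 2 of both times held fewer macrophage and fibroblast transcripts than the other *Mtorfl/fl* replicates: the 16 macrophage markers summed to 204 and 216 FPKM in replicates 1 and 2 against 451 to 649 FPKM in replicates 3 to 5 at day 7, and to 99.4 and 96.2 FPKM against 369 and 466 FPKM at baseline. Skeletal muscle markers summed to 629 FPKM in *Mtor-cKO* day 7 replicate 1 and 751 FPKM in *Mtor-cKO* baseline replicate 2, and to at most 107 FPKM in any other library.

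Few single genes passed the test for a response that differed between the genotypes. With edgeR's quasi-likelihood test and Benjamini-Hochberg adjustment over all 13408 genes, 2 genes had a lower response in *Mtor-cKO* DRGs (0.0149% of genes tested) and 9 had a higher one (0.0671%). At an unadjusted p under 0.05 there were 693 lower (5.17%) and 1049 higher (7.82%). DESeq2 called 129 lower and 129 higher (0.962% each), all 11 of the edgeR calls among them. Injury itself gave far more calls in each genotype: 613 genes rose (4.57%) and 319 fell (2.38%) in *Mtor-cKO* DRGs, and 625 rose (4.66%) and 346 fell (2.58%) in *Mtorfl/fl* DRGs. The genotypes also differed within each time, with 1751 genes lower (13.1%) and 1732 higher (12.9%) in *Mtor-cKO* DRGs at day 7, and 1061 lower (7.91%) and 1069 higher (7.97%) at baseline.

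The counts of interaction calls moved with the libraries that stand apart. A fit with an added term for *Mtorfl/fl* replicates 1 and 2, chosen after the data were seen, called 164 genes lower (1.22%) and 419 higher (3.12%), the same 11 included. All 583 of these had the same sign when only *Mtorfl/fl* replicates 1 and 2, or only replicates 3 to 5, were set against the *Mtor-cKO* libraries. Both refits reuse the libraries that chose the 583, so this agreement was close to fixed in advance. With *Mtor-cKO* day 7 replicate 1 and *Mtor-cKO* baseline replicate 2, the muscle-rich libraries, left out, no gene passed in either direction. The transcripts called higher were long: 8 of the 9 called higher were 5345 to 8609 bases, with a median over the 9 of 7924 bases against 3164 bases over all genes tested. With an offset per library for transcript length and GC content, 1 gene passed as lower and none as higher. All 11 genes had the same sign and an unadjusted p under 0.05 in both of these fits, which reuse the libraries that chose the 11.

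**Figure D1:**
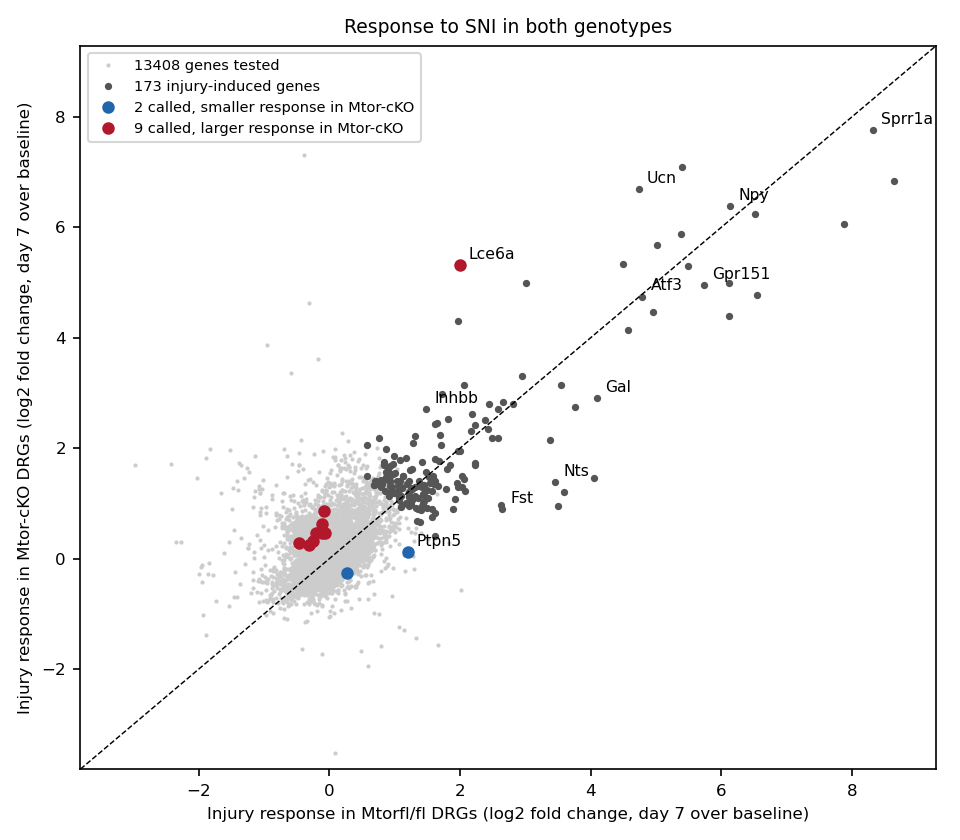
Log2 fold change from baseline to day 7 after SNI in *Mtor-cKO* DRGs (y axis) against the same in *Mtorfl/fl* DRGs (x axis), 1 point per gene tested, with equal responses on the dashed line. Most of the 173 injury-induced genes (dark grey) lie along the line, *Nts*, *Fst* and *Gal* lie below it, *Lce6a* and *Inhbb* above it, and most of the 11 called genes (blue and red) had small responses in both genotypes.

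The larger of the 2 negative interactions called was that of *Ptpn5*, which encodes the tyrosine phosphatase STEP, known in striatal neurons for dephosphorylating MAP kinases and glutamate receptor subunits. *Ptpn5* had 8.71, 9.37, 8.42 and 7.85 FPKM in *Mtor-cKO* DRGs at day 7 and 8.04, 7.95, 7.57 and 7.48 FPKM at baseline, against 5.47, 5.48, 7.21, 5.24 and 6.11 FPKM in *Mtorfl/fl* DRGs at day 7 and 2.75, 2.49, 1.94 and 2.97 FPKM at baseline. Every *Mtor-cKO* library, uninjured ones included, was above every *Mtorfl/fl* library, and within *Mtorfl/fl* every injured library was above every uninjured one. The interaction was -1.08 ± 0.17 (log2 ± SE; edgeR adjusted p = 0.0167). The change of *Ptpn5* after injury was 0.12 in *Mtor-cKO* DRGs (log2; adjusted p = 0.534), and it rose by 1.21 in *Mtorfl/fl* DRGs (adjusted p = 1.25e-05). The genotype difference was 0.51 at day 7 (log2; adjusted p = 0.00338) and 1.60 at baseline (adjusted p = 1.33e-06). *Ptpn5* was also the 1 gene that passed with the offset for transcript length and GC.

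The other was *0610007P14Rik*, named *Erg28* in RefSeq after a yeast gene of ergosterol synthesis. It had 21.5, 20.1, 20.4 and 21.5 FPKM in *Mtor-cKO* DRGs at day 7 and 23.34, 24.99, 24.94 and 25.33 FPKM at baseline, against 27.9, 27.5, 29.9, 28.3 and 29.1 FPKM in *Mtorfl/fl* DRGs at day 7 and 21.7, 22.1, 26.7 and 24.5 FPKM at baseline. The responses ran in opposite directions: it fell by 0.26 in *Mtor-cKO* DRGs (log2; edgeR adjusted p = 0.0115) and rose by 0.27 in *Mtorfl/fl* DRGs (adjusted p = 0.00453). Its interaction was -0.52 ± 0.08 (adjusted p = 0.0167).

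The next 3 genes by p in this direction did not pass, and 2 of them encode secreted proteins of the injured ganglion. *Nts* encodes the precursor of neurotensin, a neuropeptide with central analgesic actions. It had 4.05, 4.41, 3.48 and 4.97 FPKM in *Mtor-cKO* DRGs at day 7 and 1.45, 1.78, 1.72 and 1.40 FPKM at baseline, against 58.8, 53.1, 139, 68.9 and 91.5 FPKM in *Mtorfl/fl* DRGs at day 7 and 5.59, 7.80, 9.20 and 7.30 FPKM at baseline. None of the 4 groups overlapped, and even uninjured *Mtorfl/fl* DRGs held more *Nts* than injured *Mtor-cKO* DRGs. Mean *Nts* rose 2.61-fold in *Mtor-cKO* DRGs (edgeR adjusted p = 0.00977) and 11.0-fold in *Mtorfl/fl* DRGs (adjusted p = 2.44e-07). The interaction of -2.07 ± 0.38 (log2 ± SE) missed the threshold (adjusted p = 0.0527) and passed it with the term for *Mtorfl/fl* replicates 1 and 2 (adjusted p = 0.00821), in DESeq2 (adjusted p = 1.62e-05), and without *Mtorfl/fl* day 7 replicate 3, the library highest in *Nts* (-1.80, adjusted p = 0.00686).

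*Fst* encodes follistatin, a secreted protein that binds and neutralises activins. It had 3.21, 4.16, 2.46 and 2.01 FPKM in *Mtor-cKO* DRGs at day 7 and 1.32, 1.63, 1.46 and 1.86 FPKM at baseline, against 8.31, 8.61, 16.8, 8.92 and 8.91 FPKM in *Mtorfl/fl* DRGs at day 7 and 1.72, 1.27, 1.5 and 2.21 FPKM at baseline. The genotypes overlapped at baseline and were apart after injury. The interaction was -1.75 ± 0.34 (log2 ± SE; edgeR adjusted p = 0.069), and without *Mtorfl/fl* day 7 replicate 3 it was -1.51 (adjusted p = 0.0327). *Inhbb*, which encodes the beta subunit of activin B, the kind of ligand that follistatin binds, had the opposite estimate. It had 13.78, 18.81, 13.96 and 10.14 FPKM in *Mtor-cKO* DRGs at day 7 and 1.94, 2.67, 1.46 and 2.46 FPKM at baseline, against 3.32, 4.29, 8.19, 4.46 and 4.15 FPKM in *Mtorfl/fl* DRGs at day 7 and 2.26, 1.29, 1.83 and 1.67 FPKM at baseline. *Inhbb* rose in both genotypes, by 2.71 in *Mtor-cKO* and 1.47 in *Mtorfl/fl* DRGs (log2), and the difference of 1.23 ± 0.37 did not pass (edgeR adjusted p = 0.185), although every injured *Mtor-cKO* library was above every injured *Mtorfl/fl* library. Over the 18 tested genes of the activin and TGF-beta superfamily list, none passed for the interaction, and the median was 0.10 against 0.00 over all genes tested. At an unadjusted p under 0.05, 2 were lower and 4 higher, beside 5.17% and 7.82% of all genes tested.

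*Eif1a*, a translation initiation factor, was the fourth gene by p in this direction, just before *Fst*, with an interaction of -0.43 ± 0.08 (log2 ± SE; edgeR adjusted p = 0.0547). It averaged 28.7 ± 1.89 FPKM in *Mtor-cKO* DRGs at day 7 and 30.0 ± 0.50 FPKM at baseline (SD, n = 4 each), against 32.4 ± 3.49 FPKM in *Mtorfl/fl* DRGs at day 7 (n = 5) and 25.6 ± 1.19 FPKM at baseline (n = 4). Its change was -0.09 in *Mtor-cKO* DRGs (adjusted p = 0.355), and it rose by 0.34 in *Mtorfl/fl* DRGs (adjusted p = 0.00108).

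**Figure D2:**
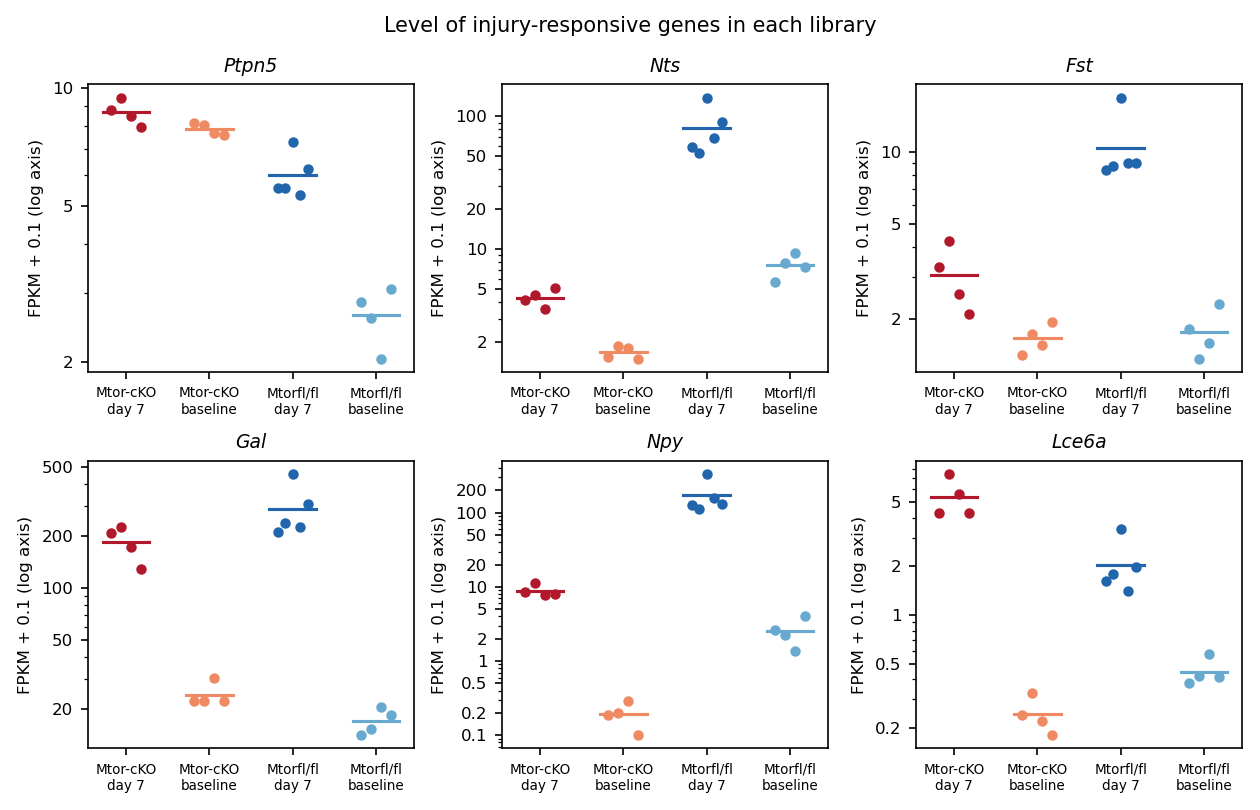
Level of 6 genes in each library, as FPKM + 0.1 on a log axis, for *Mtor-cKO* and *Mtorfl/fl* DRGs at day 7 and baseline, where points are libraries and bars group means. On this axis the step from baseline to day 7 is the injury response: it is flat for *Ptpn5* in *Mtor-cKO*, shorter in *Mtor-cKO* for *Nts*, *Fst* and *Gal*, near equal for *Npy* (log2 6.38 in *Mtor-cKO* and 6.13 in *Mtorfl/fl*) from very unequal baselines, and longer in *Mtor-cKO* for *Lce6a*.

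Of the 9 genes with a higher response in *Mtor-cKO* DRGs, all 9 rose after injury there, and 1 rose and 3 fell in *Mtorfl/fl* DRGs. For 6 of the 9, *Mtor-cKO* was below *Mtorfl/fl* at baseline by the same test, and for 5 of the 9 it was above at day 7. Choice by a positive interaction favours such patterns, so these counts are a description. Of all genes tested, 4.57% rose in *Mtor-cKO* DRGs, and 4.66% rose and 2.58% fell in *Mtorfl/fl* DRGs. In *Mtor-cKO* DRGs 7.91% were lower at baseline and 12.9% higher at day 7. The strongest by p was *Megf9*, which encodes a membrane protein with EGF-like repeats expressed in the nervous system. *Megf9* had 28.7, 28.6, 29.6 and 30.5 FPKM in *Mtor-cKO* DRGs at day 7 and 24.6, 23.5, 24.0 and 22.5 FPKM at baseline, against 23.7, 22.8, 23.7, 26.8 and 30.6 FPKM in *Mtorfl/fl* DRGs at day 7 and 33.5, 30.4, 40.7 and 37.7 FPKM at baseline. It rose by 0.28 in *Mtor-cKO* DRGs (log2; edgeR adjusted p = 0.024) and fell by 0.47 in *Mtorfl/fl* DRGs (adjusted p = 0.000354), an interaction of 0.75 ± 0.10 (adjusted p = 0.0107). The lowest uninjured *Mtorfl/fl* library was above the highest uninjured *Mtor-cKO* library, whereas the genotypes overlapped at day 7.

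*Masp1*, a serine protease of the lectin pathway of complement, was the 1 gene that also passed on an additive scale. It had 8.12, 8.98, 7.60 and 8.50 FPKM in *Mtor-cKO* DRGs at day 7 and 3.97, 4.95, 4.53 and 4.51 FPKM at baseline, against 4.10, 4.53, 5.86, 4.09 and 4.40 FPKM in *Mtorfl/fl* DRGs at day 7 and 5.01, 4.69, 5.04 and 5.13 FPKM at baseline. The 4 injured *Mtor-cKO* libraries stood above the other 13, which overlapped one another. The interaction was 0.95 ± 0.15 (log2 ± SE; edgeR adjusted p = 0.0167), and the difference of the 2 rises was 4.18 ± 0.49 FPKM (limma on FPKM, adjusted p = 0.0189). On that scale limma called 0 genes lower and 1 higher (0.00746%), with 723 and 1065 at an unadjusted p under 0.05.

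*Aff1*, a component of transcription elongation complexes, and *Jmjd1c*, a protein of the jumonji histone demethylase family, also stood highest in injured *Mtor-cKO* DRGs. *Aff1* had 8.57, 9.13, 8.37 and 7.40 FPKM in *Mtor-cKO* DRGs at day 7 and 5.67, 5.42, 5.02 and 5.15 FPKM at baseline, against 5.14 to 6.63 FPKM in the 5 *Mtorfl/fl* libraries at day 7 and 6.02 to 7.36 FPKM in the 4 at baseline. Its interaction was 0.74 ± 0.11 (log2 ± SE; edgeR adjusted p = 0.0167). *Jmjd1c* had 7.44, 7.41, 7.76 and 7.05 FPKM in *Mtor-cKO* DRGs at day 7 and 5.06 to 5.45 FPKM at baseline, against 4.49 to 6.11 FPKM in *Mtorfl/fl* DRGs at day 7 and 4.64 to 5.91 FPKM at baseline. Its interaction was 0.54 ± 0.10 (edgeR adjusted p = 0.0469). For both genes the injured *Mtor-cKO* libraries exceeded every *Mtorfl/fl* library, and the *Mtorfl/fl* groups overlapped each other. For *Aff1*, uninjured *Mtor-cKO* libraries were all below uninjured *Mtorfl/fl* libraries.

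In *Pik3r1* and *Adgrf5* the response narrowed a genotype difference that was present at baseline. *Pik3r1* encodes a regulatory subunit of PI 3-kinase, the enzyme upstream of AKT and mTOR in insulin signalling, and had 22.4, 22.7, 22.1 and 21.7 FPKM in *Mtor-cKO* DRGs at day 7 and 15.9, 15.2, 15.9 and 17.9 FPKM at baseline, against 26.4, 25.5, 25.5, 27.0 and 32.0 FPKM in *Mtorfl/fl* DRGs at day 7 and 27.0, 26.1, 34.4 and 30.8 FPKM at baseline. It rose by 0.46 in *Mtor-cKO* DRGs (log2; edgeR adjusted p = 0.000885), its change in *Mtorfl/fl* DRGs was -0.11 (adjusted p = 0.387), and the interaction was 0.57 ± 0.10 (adjusted p = 0.0303). The genotype difference was -0.25 at day 7 (adjusted p = 0.0132) and -0.82 at baseline (adjusted p = 2.21e-06). *Adgrf5*, an adhesion G protein-coupled receptor known from lung epithelium and endothelium, averaged 5.67 ± 0.40 FPKM in *Mtor-cKO* DRGs at day 7 and 3.97 ± 0.41 FPKM at baseline (SD, n = 4 each), against 7.54 ± 0.51 FPKM in *Mtorfl/fl* DRGs at day 7 (n = 5) and 8.96 ± 1.65 FPKM at baseline (n = 4). Its interaction was 0.67 ± 0.11 (edgeR adjusted p = 0.0311), and *Mtor-cKO* libraries were below *Mtorfl/fl* libraries at both times.

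*Tacc1*, a coiled-coil protein that binds microtubule regulators, and *Arhgap31*, a GTPase-activating protein, moved in opposite directions in the genotypes. *Tacc1* averaged 15.2 ± 0.63 FPKM in *Mtor-cKO* DRGs at day 7 and 12.6 ± 0.54 FPKM at baseline (SD, n = 4 each), against 13.9 ± 1.26 FPKM in *Mtorfl/fl* DRGs at day 7 (n = 5) and 17.1 ± 1.86 FPKM at baseline (n = 4), an interaction of 0.56 ± 0.09 (log2 ± SE; edgeR adjusted p = 0.0167). *Arhgap31* averaged 13.5 ± 0.72 and 10.7 ± 0.77 FPKM in *Mtor-cKO* DRGs at day 7 and baseline, against 10.6 ± 1.12 and 12.8 ± 1.71 FPKM in *Mtorfl/fl* DRGs, an interaction of 0.57 ± 0.09 (edgeR adjusted p = 0.0261). Both rose in *Mtor-cKO* and fell in *Mtorfl/fl* DRGs by the test within each genotype.

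*Lce6a*, a member of the late cornified envelope family of skin proteins, was the exception among the 9 in size, in transcript length (795 bases) and in being induced by injury in both genotypes. It had 4.19, 7.33, 5.48 and 4.18 FPKM in *Mtor-cKO* DRGs at day 7 and 0.14, 0.23, 0.12 and 0.08 FPKM at baseline, against 1.52, 1.70, 3.28, 1.30 and 1.88 FPKM in *Mtorfl/fl* DRGs at day 7 and 0.28, 0.32, 0.47 and 0.31 FPKM at baseline. The order of the genotypes was reversed between the times, with no overlap at either. The log2 response was 5.32 in *Mtor-cKO* and 2.00 in *Mtorfl/fl* DRGs, an interaction of 3.32 ± 0.56 (edgeR adjusted p = 0.0303). The baseline rested on few reads, 11 counts over the 4 *Mtor-cKO* libraries and 28 over the 4 *Mtorfl/fl* libraries, and the ratio of day 7 to baseline from summed counts was 42.5 (95% counting interval 23.5 to 85.7) in *Mtor-cKO* and 4.01 (2.66 to 6.24) in *Mtorfl/fl* DRGs. Such intervals cover counting error only.

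**Figure D3:**
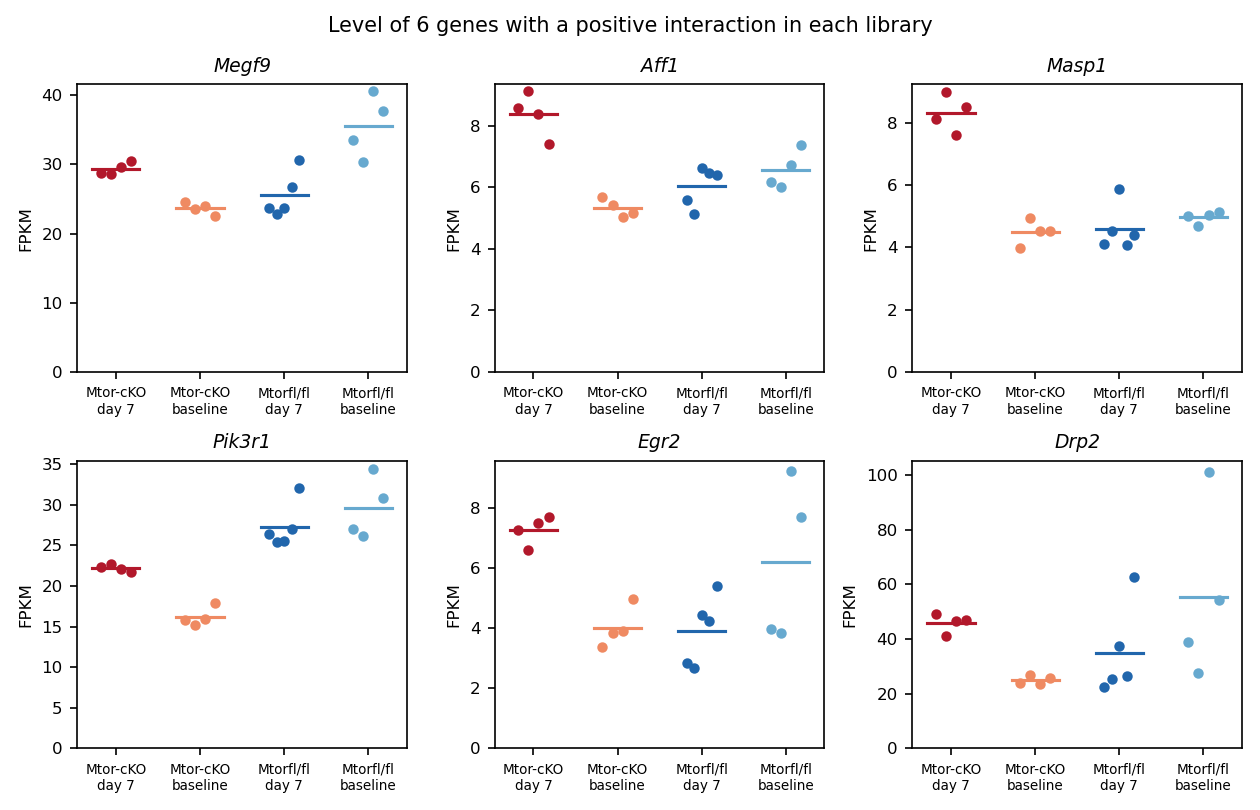
FPKM in each library for 6 genes with a positive interaction, for *Mtor-cKO* and *Mtorfl/fl* DRGs at day 7 and baseline, where points are libraries and bars group means. *Megf9*, *Aff1*, *Masp1* and *Pik3r1* passed the test, and *Egr2* and *Drp2* (edgeR adjusted p = 0.104 and 0.161) did not, with *Mtorfl/fl* baseline replicates spread from 3.85 to 9.25 FPKM for *Egr2* and from 27.5 to 101 FPKM for *Drp2*.

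The injury-induced genes as a group had near-equal median responses in both genotypes. Averaged over the genotypes, 173 genes rose more than 2-fold after SNI (1.29% of genes tested, edgeR adjusted p under 0.05) and 3 fell more than 2-fold (0.0224%). The rule for these 173 used the average response, not the difference between the genotypes. Their median log2 response was 1.42 in *Mtor-cKO* and 1.44 in *Mtorfl/fl* DRGs, the estimate was smaller in *Mtor-cKO* for 83 and larger for 90, and the median interaction was 0.03 (middle 50% of genes, -0.40 to 0.54) against 0.00 over all genes tested. The interaction was called lower for 0 and higher for 1 of the 173 (*Lce6a*). At an unadjusted p under 0.05 it was lower for 14 and higher for 12, beside 5.17% and 7.82% of all genes tested. With the term for *Mtorfl/fl* replicates 1 and 2, 6 were called lower and 3 higher, beside 1.22% and 3.12%. Across these 173 genes the 2 responses, which share no library, had a Pearson r of 0.85 and a Spearman correlation of 0.45. Over all genes tested the values were 0.54 and 0.33. The 173 were chosen by the mean of the same 2 responses, and genes are not replicates, so these are a description.

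Levels in the injured ganglion gave another picture. At day 7, 46 of the 173 were lower and 5 higher in *Mtor-cKO* than in *Mtorfl/fl* DRGs, beside 13.1% and 12.9% of all genes tested, and at baseline 27 were lower and 2 higher, beside 7.91% and 7.97%. The median rise in FPKM in *Mtor-cKO* was 87.0% of that in *Mtorfl/fl* DRGs, and it was 3.53% for *Nts*, 5.16% for *Npy* and 16.1% for *Fst*. Genes that passed the 1 FPKM filter only through injured *Mtorfl/fl* DRGs had a low share by that choice, so these shares are a description.

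*Npy* is the precursor of neuropeptide Y, which uninjured DRG neurons scarcely express. It had 8.51, 11.1, 7.69 and 8.03 FPKM in *Mtor-cKO* DRGs at day 7 and 0.09, 0.10, 0.19 and 0 FPKM at baseline, against 127, 112, 332, 156 and 130 FPKM in *Mtorfl/fl* DRGs at day 7 and 2.54, 2.15, 1.26 and 3.93 FPKM at baseline. No groups overlapped. On the ratio scale the responses were near equal, 6.38 in *Mtor-cKO* and 6.13 in *Mtorfl/fl* DRGs (log2), with an interaction of 0.25 ± 0.85 (edgeR adjusted p = 0.937). In FPKM the mean rise was 8.72 in *Mtor-cKO* and 169 in *Mtorfl/fl* DRGs, a difference of -160 ± 40.8 FPKM (limma on FPKM, adjusted p = 0.173). The ratio in *Mtor-cKO* DRGs rests on 4 counts at baseline: it was 95.4 (95% counting interval 37.0 to 352) from summed counts, against 70.3 (57.8 to 86.5) in *Mtorfl/fl* DRGs. The sign depended on the scale, since limma on log2(FPKM + 1), where *Npy* at baseline is close to the added 1, gave -2.41 (adjusted p = 0.0241).

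The 15 tested neuropeptide precursors leaned to smaller responses in *Mtor-cKO* DRGs, with none called. Their median interaction was -0.30 against 0.00 over all genes tested, with 11 estimates below and 4 above 0. At an unadjusted p under 0.05, 5 were lower and none higher, where all genes tested had 5.17% and 7.82%. The median response was 0.28 in *Mtor-cKO* and 0.52 in *Mtorfl/fl* DRGs. *Gal*, the precursor of galanin, a classic injury-induced peptide, had 209, 225, 173 and 129 FPKM in *Mtor-cKO* DRGs at day 7 and 22.08, 22.03, 30.23 and 22.15 FPKM at baseline, against 211, 237, 457, 227 and 306 FPKM in *Mtorfl/fl* DRGs at day 7 and 14, 15.1, 20.4 and 18.3 FPKM at baseline. Uninjured *Mtor-cKO* libraries were all above uninjured *Mtorfl/fl* libraries, and the order was turned in the means after injury, with overlap. *Gal* rose by 2.91 in *Mtor-cKO* and 4.09 in *Mtorfl/fl* DRGs (log2), an interaction of -1.19 ± 0.31 that did not pass in edgeR (adjusted p = 0.14) and passed with the term for *Mtorfl/fl* replicates 1 and 2 (adjusted p = 0.036) and in DESeq2 (adjusted p = 0.0146). The peptides of nociceptors had small negative estimates that did not pass: *Adcyap1* (PACAP) -0.50, *Tac1* (substance P) -0.54, *Calcb* -0.48 and *Calca* (both CGRP) -0.30.

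*Crh* and *Ucn*, of the corticotropin-releasing family, had positive but imprecise estimates. *Crh*, the precursor of corticotropin-releasing hormone, rose by a log2 of 5.68 in *Mtor-cKO* and 5.02 in *Mtorfl/fl* DRGs, with 5 and 11 baseline counts. Its interaction was 0.66 ± 1.00 (log2 ± SE, edgeR adjusted p = 0.826). That estimate was 2.02 with *Mtorfl/fl* replicates 1 and 2 alone and -0.56 with replicates 3 to 5 alone. *Ucn*, the precursor of urocortin and named after its values were seen, had 13.1, 26.2, 12.9 and 21.1 FPKM in *Mtor-cKO* DRGs at day 7 and 0, 0.17, 0.08 and 0.38 FPKM at baseline, against 2.84, 2.58, 5.86, 5.71 and 4.64 FPKM in *Mtorfl/fl* DRGs at day 7 and 0.25, 0, 0 and 0.38 FPKM at baseline. Every injured *Mtor-cKO* library was above every injured *Mtorfl/fl* library, by 2.05 on the log2 scale (edgeR adjusted p = 0.000983). With 8 baseline counts in *Mtor-cKO* and 7 in *Mtorfl/fl* DRGs, the interaction was imprecise, at 1.95 ± 1.13 (adjusted p = 0.478).

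The upstream bases of 4 injury-induced genes are shown because their responses span the pattern: *Nts* with a smaller ratio in *Mtor-cKO*, *Npy* with a near-equal ratio from a lower baseline, *Sprr1a* with no called difference, and *Ucn* with a higher injured level. They are the bases just before the transcript start in RefSeq (build GRCm38.p6), read in the direction of transcription, at chr10:102490419-102490638 (minus strand), chr6:49822610-49822709 (plus strand), chr3:92485882-92486041 (minus strand) and chr5:31138896-31138995 (minus strand). Capitals mark the letters searched on both strands: TGANTCA, the AP-1 site bound by JUN family dimers, and TGACGTCA, the cyclic AMP response element (CRE) bound by CREB and ATF proteins.
Nts: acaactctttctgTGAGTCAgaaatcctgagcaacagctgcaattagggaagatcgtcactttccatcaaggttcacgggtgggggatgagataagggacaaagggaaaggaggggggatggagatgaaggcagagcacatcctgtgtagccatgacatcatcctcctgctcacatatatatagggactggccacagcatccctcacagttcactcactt
Npy: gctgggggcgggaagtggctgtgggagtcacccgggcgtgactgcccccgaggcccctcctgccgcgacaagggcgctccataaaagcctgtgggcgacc
Sprr1a: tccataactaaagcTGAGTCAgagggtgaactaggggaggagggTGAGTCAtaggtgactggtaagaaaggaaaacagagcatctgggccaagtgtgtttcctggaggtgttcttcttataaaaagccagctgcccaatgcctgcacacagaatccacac
Ucn: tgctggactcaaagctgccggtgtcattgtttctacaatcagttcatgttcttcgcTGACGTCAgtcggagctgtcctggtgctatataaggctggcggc
The stretches held 1 AP-1 match in *Nts* (starting 207 bases before the transcript start), 2 in *Sprr1a* and none in *Npy* or *Ucn*, and 1 CRE match in *Ucn* (starting 44 bases before). The STAT site TTCNNNGAA, searched in the same way, had no match in the 4 stretches. These are 100 to 220 bases long, and the full 250 upstream bases of the 4 genes held no further match. The study predicted 4 STAT3 sites for *Npy* with a scoring matrix over a much longer window, so the searches are not alike. Over the 250 upstream bases of 32851 RefSeq promoters, 6.75% held the AP-1 letters, 1.55% the CRE letters and 7.02% the STAT letters. A match is a description of the letters alone.

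The transcription factors and growth genes of the injury program gave no called difference. *Atf3*, the transcription factor used to mark injured neurons, had 120, 166, 107 and 113 FPKM in *Mtor-cKO* DRGs at day 7 and 3.24, 4.45, 3.81 and 7.07 FPKM at baseline, against 100, 91.6, 227, 98.1 and 105 FPKM in *Mtorfl/fl* DRGs at day 7 and 4.87, 4.21, 4.33 and 4.60 FPKM at baseline. The genotypes overlapped at both times, the responses were 4.74 in *Mtor-cKO* and 4.79 in *Mtorfl/fl* DRGs (log2), and the interaction was -0.05 ± 0.39 (edgeR adjusted p = 0.977). *Sprr1a*, an injury-induced protein that promotes neurite growth, averaged 655 ± 152 FPKM in *Mtor-cKO* DRGs at day 7 and 2.96 ± 2.32 FPKM at baseline (SD, n = 4 each), against 883 ± 432 FPKM in *Mtorfl/fl* DRGs at day 7 (n = 5) and 2.82 ± 1.86 FPKM at baseline (n = 4), an interaction of -0.56 ± 0.66 (edgeR adjusted p = 0.766). Over the 13 injury transcription factors 7 rose in each genotype, the median response was 0.51 in *Mtor-cKO* and 0.42 in *Mtorfl/fl* DRGs, and the median interaction was 0.02. *Jun* rose by 1.61 in *Mtor-cKO* and 0.89 in *Mtorfl/fl* DRGs (log2), and the difference of 0.72 did not pass (edgeR adjusted p = 0.184). Among 20 regeneration effectors 12 rose in *Mtor-cKO* and 16 in *Mtorfl/fl* DRGs, with a median response of 1.08 and 1.36 and a median interaction of -0.18. None of these was called for the interaction. Of all genes tested, 4.57% rose in *Mtor-cKO* and 4.66% in *Mtorfl/fl* DRGs, and counts within a genotype do not test the difference. The lowest p was that of *Basp1*, a membrane protein of growth cones, at -0.47 (adjusted p = 0.144).

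G protein-coupled receptors and cytokines known from injured DRGs also gave no calls. *Gpr151*, an orphan receptor induced by nerve injury, had 12.6, 18.3, 12.4 and 10.8 FPKM in *Mtor-cKO* DRGs at day 7 and 0.33 to 0.48 FPKM at baseline, against 24.5, 24.1, 52.4, 27.1 and 24.5 FPKM in *Mtorfl/fl* DRGs at day 7 and 0.51 to 0.63 FPKM at baseline. The injured groups did not overlap and differed by -1.21 on the log2 scale (edgeR adjusted p = 0.000775), but the responses of 4.96 in *Mtor-cKO* and 5.74 in *Mtorfl/fl* DRGs gave an interaction of -0.78 ± 0.46 that did not pass (adjusted p = 0.484). *Gpr119*, a lipid receptor, averaged 0.44 FPKM in *Mtor-cKO* and 1.71 FPKM in *Mtorfl/fl* DRGs at day 7, a difference of -1.99 (log2; edgeR adjusted p = 0.000116), with -2.53 at baseline (adjusted p = 0.000227) and an interaction of 0.54 (adjusted p = 0.648). *Csf1*, the cytokine by which injured neurons act on microglia and macrophages, rose by 1.30 in *Mtor-cKO* and 1.97 in *Mtorfl/fl* DRGs, an interaction of -0.67 (adjusted p = 0.353). *Il1b* had -0.94 (adjusted p = 0.568), and the neuropeptide Y receptors *Npy1r* and *Npy2r* had -0.28 (adjusted p = 0.44) and -0.64 (adjusted p = 0.227).

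Among the genes of the pathway itself, *Pik3r1*, described above, was the 1 call. Of the 24 tested effectors and feedback genes of mTORC1, 3 were lower and 6 higher at an unadjusted p under 0.05. Over all genes tested these shares were 5.17% and 7.82%. The median interaction of the 24 was 0.09. *Sgk1*, a kinase activated by mTORC2, had a response of 0.92 in *Mtor-cKO* and -0.54 in *Mtorfl/fl* DRGs (interaction 1.46, edgeR adjusted p = 0.184), and *Rps6kb2*, which encodes an S6 kinase, -0.24 in *Mtor-cKO* and 0.28 in *Mtorfl/fl* DRGs (interaction -0.52, adjusted p = 0.144). For the 22 genes of the mTOR complexes and their regulators the median was -0.10, with 5 lower and 0 higher at an unadjusted p under 0.05. Those 5 were *Rraga* (-0.33), *Rragd* (-0.33) and *Lamtor1* (-0.24), which hold mTORC1 at the lysosome, and *Mlst8* (-0.36) and *Akt1s1* (-0.22), which bind mTOR complexes. With the term for *Mtorfl/fl* replicates 1 and 2, 3 of the 22 were called lower, beside 1.22% of all genes tested.

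The lists below, for processes that mTORC1 is known to regulate, had medians from -0.19 to -0.02. The 30 translation factors had a median interaction of -0.10, with 26 estimates below and 4 above 0 and none called, where 0 rose in *Mtor-cKO* and 6 in *Mtorfl/fl* DRGs. At an unadjusted p under 0.05, 6 were lower and 0 higher, beside 5.17% and 7.82% of all genes tested. Within the genotypes, 4.57% of all genes tested rose in *Mtor-cKO* and 4.66% in *Mtorfl/fl* DRGs. A rise that passed in 1 genotype only is not read as a difference between them. The 33 sterol and fatty acid synthesis genes had a median of -0.19, with 25 below and 8 above 0, where 1 rose in *Mtor-cKO* and 5 in *Mtorfl/fl* DRGs, and no call for the interaction. In the 24 genes of the ATF4 amino acid response the median was -0.17, and 6 rose in *Mtor-cKO* and 10 in *Mtorfl/fl* DRGs. *Gpt2*, a mitochondrial alanine transaminase, had the lowest p of that list at 0.93 (edgeR adjusted p = 0.0923), and *Slc7a3*, a cationic amino acid transporter, had -1.03 (adjusted p = 0.147). For the 28 ribosome biogenesis genes the median was -0.03, and for the 33 lysosome and autophagy genes -0.02.

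**Figure D4:**
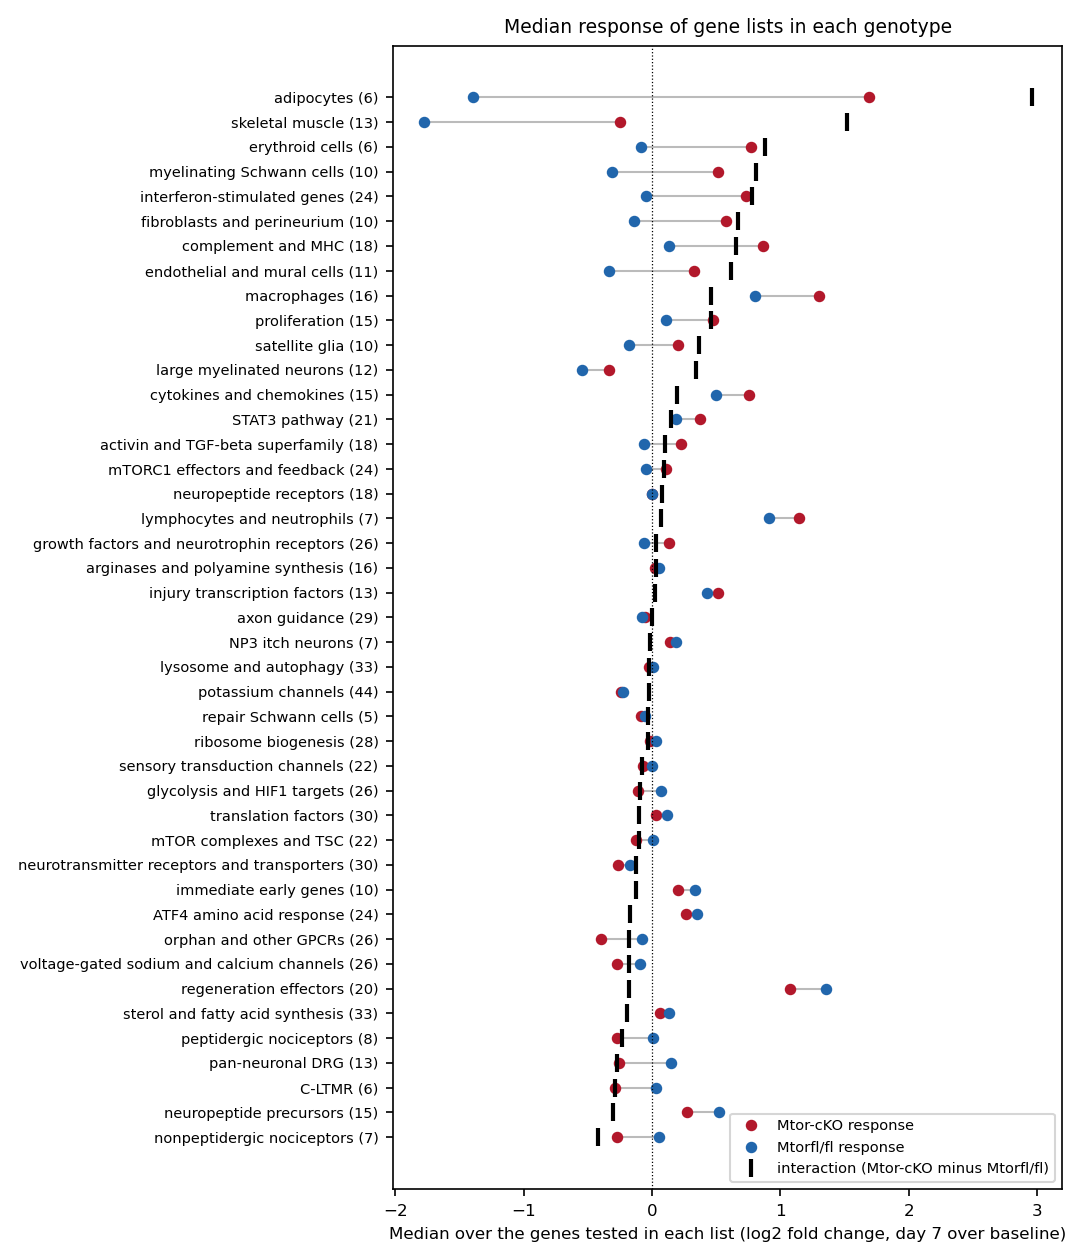
Median log2 response to SNI in *Mtor-cKO* DRGs (red) and *Mtorfl/fl* DRGs (blue), and median interaction (black bar), over the tested genes of each list, with the number tested in brackets. Among the top lists, with a higher median in *Mtor-cKO*, are adipocytes, skeletal muscle, erythroid cells and myelinating Schwann cells (0.51 in *Mtor-cKO*, -0.31 in *Mtorfl/fl*), and at the bottom are nonpeptidergic nociceptors, neuropeptide precursors and C-LTMRs (C-fibre low-threshold mechanoreceptors).

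Markers of several cell types around the neurons leaned to higher responses in *Mtor-cKO* DRGs, as whole lists rather than as called genes. The 10 markers of myelinating Schwann cells had a median response of 0.51 in *Mtor-cKO* and -0.31 in *Mtorfl/fl* DRGs and a median interaction of 0.81 against 0.00 over all genes tested. All 10 estimates were above 0, 8 at an unadjusted p under 0.05, and none passed after adjustment (DESeq2 called 2, and the fit with the term for *Mtorfl/fl* replicates 1 and 2 called 6). Over all genes tested, higher calls were 7.82% unadjusted, 0.962% in DESeq2 and 3.12% with the term. *Egr2*, the transcription factor that drives myelination, had 7.27, 6.62, 7.51 and 7.71 FPKM in *Mtor-cKO* DRGs at day 7 and 3.37, 3.84, 3.90 and 4.99 FPKM at baseline, against 2.85, 2.67, 4.46, 4.23 and 5.4 FPKM in *Mtorfl/fl* DRGs at day 7 and 3.98, 3.85, 9.25 and 7.71 FPKM at baseline. Every injured *Mtor-cKO* library was above every uninjured *Mtor-cKO* library and every injured *Mtorfl/fl* library. Its interaction was 1.41 ± 0.31 (log2 ± SE; edgeR adjusted p = 0.104; with the term, adjusted p = 0.000264). *Drp2*, a dystrophin-related protein of the myelin sheath, had 49.2, 41.0, 46.4 and 47.0 FPKM in *Mtor-cKO* DRGs at day 7 and 23.4 to 26.7 FPKM at baseline, against 22.3, 25.2, 37.5, 26.6 and 62.5 FPKM in *Mtorfl/fl* DRGs at day 7 and 39.0, 27.5, 101 and 54.4 FPKM at baseline, an interaction of 1.51 ± 0.42 (edgeR adjusted p = 0.161). The summed level of the 10 markers was 4078 to 5733 FPKM in *Mtor-cKO* DRGs at day 7 and 3529 to 3816 FPKM at baseline, against 3137 to 6519 FPKM and 3484 to 8167 FPKM in *Mtorfl/fl* DRGs, so the widest range was in uninjured *Mtorfl/fl* libraries. The 5 tested markers of repair Schwann cells did not lean this way, with a median of -0.03, 3 below and 2 above 0.

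The 10 markers of fibroblasts and perineurium had a median interaction of 0.67, with all 10 above 0 and 4 at an unadjusted p under 0.05. The 11 of endothelial and mural cells had 0.62, with all 11 above 0 and 6 at an unadjusted p under 0.05. Over all genes tested, 7.82% were higher at that p. Among the vascular genes *Myh11*, the myosin of smooth muscle, had 1.90 (edgeR adjusted p = 0.125), and *Flt1*, a VEGF receptor, 0.88 (adjusted p = 0.125). For 10 satellite glia markers the median was 0.36, and for 16 macrophage markers 0.46, with a response of 1.30 in *Mtor-cKO* and 0.80 in *Mtorfl/fl* DRGs. The macrophage median rested on *Mtorfl/fl* replicates 3 to 5: it was 0.75 with these alone and 0.04 with replicates 1 and 2 alone. *Cd163*, a scavenger receptor of resident macrophages, had 2.29 (adjusted p = 0.226).

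Interferon-stimulated, complement and MHC genes had positive medians and few unadjusted calls, which over all genes tested were 7.82%. The 24 interferon-stimulated genes had a median response of 0.73 in *Mtor-cKO* and -0.05 in *Mtorfl/fl* DRGs and a median interaction of 0.78, with 23 above and 1 below 0 and 3 at an unadjusted p under 0.05. The median of these interferon-stimulated genes was 0.36 without the 2 muscle-rich libraries. *Gbp2*, an interferon-induced GTPase, rose by 1.36 in *Mtor-cKO* DRGs (log2; edgeR adjusted p = 0.0312), its change in *Mtorfl/fl* DRGs was 0.05 (adjusted p = 0.967), and the interaction was 1.31 (adjusted p = 0.28). The 18 complement and MHC genes had a median of 0.65, all above 0, with 2 at an unadjusted p under 0.05. That median was 0.24 without the 2 muscle-rich libraries and 0.25 with the macrophage markers as a covariate. *C4b*, a complement component, had 0.85 (adjusted p = 0.181). For the 7 tested lymphocyte and neutrophil markers the median was 0.07.

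Other cell content leaned the same way in the fit with all libraries. Markers of skeletal muscle, adipocytes and erythroid cells, which are no part of the ganglion proper, had median interactions of 1.52, 2.96 and 0.88 with no call. The erythroid median rested on *Mtorfl/fl* replicates 3 to 5. The tested erythroid markers had interactions of 1.04 to 1.34 with these alone, and of -0.14 to 0.85 with replicates 1 and 2 alone. The 13 muscle markers summed to 40.7 to 629 FPKM in *Mtor-cKO* DRGs at day 7 and 2.88 to 751 FPKM at baseline, against 3.68 to 48.3 FPKM and 10.5 to 107 FPKM in *Mtorfl/fl* DRGs. The 8 adipocyte markers summed to 73.3 to 124 FPKM and 13.3 to 78.2 FPKM in *Mtor-cKO* DRGs at day 7 and baseline, against 5.28 to 76.9 FPKM and 6.47 to 270 FPKM in *Mtorfl/fl* DRGs. The part of adipocyte and erythroid content in the results for glial, vascular and immune genes was not tested. The sign of the Schwann cell, fibroblast, endothelial, interferon and complement medians was positive under each of the alternatives run, including those that leave out the muscle-rich libraries or either subset of *Mtorfl/fl* replicates. These alternatives reuse the same libraries, so a kept sign was close to fixed in advance. The sizes were not kept, as the interferon and complement medians above show.

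**Figure D5:**
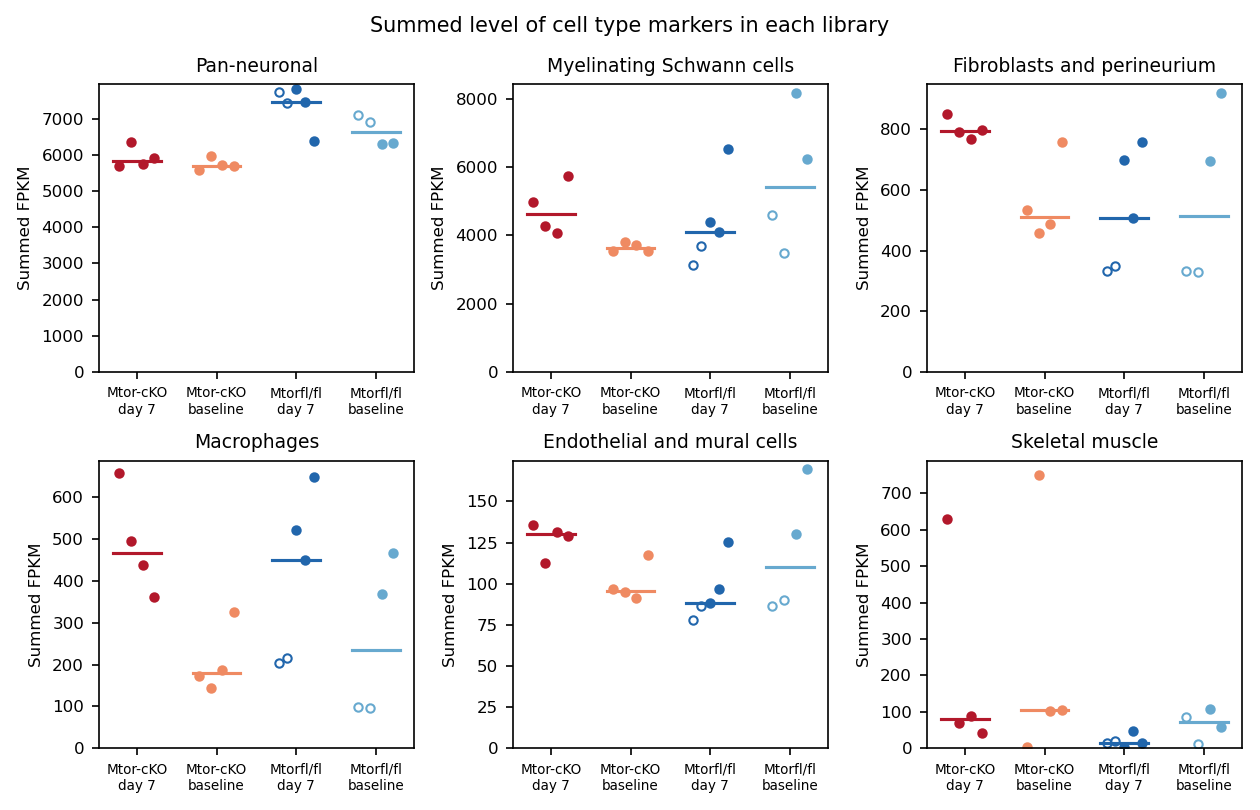
Summed FPKM of the markers of 6 cell types in each library, for *Mtor-cKO* and *Mtorfl/fl* DRGs at day 7 and baseline, with group medians as bars and *Mtorfl/fl* replicates 1 and 2 as open circles. Among *Mtorfl/fl* libraries the open circles are lowest in macrophage and fibroblast transcripts, 2 *Mtor-cKO* libraries reach 629 and 751 FPKM for skeletal muscle, and all 8 *Mtor-cKO* libraries are between 5599 and 6371 FPKM for pan-neuronal markers against 6314 to 7840 FPKM in the 9 *Mtorfl/fl* libraries.

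Markers of neurons as a whole, nociceptors and C-fibre mechanoreceptors leaned the other way, whereas those of large myelinated and itch neurons did not. The 13 pan-neuronal markers had a median interaction of -0.27, with 12 below and 1 above 0, and a median response of -0.26 in *Mtor-cKO* and 0.15 in *Mtorfl/fl* DRGs. The 7 markers of nonpeptidergic nociceptors had -0.42 and the 6 of C-fibre low-threshold mechanoreceptors -0.29, all of them below 0. For the 8 of peptidergic nociceptors the median was -0.24, with 5 below and 3 above 0. *P2rx3*, the ATP-gated channel of nonpeptidergic nociceptors, had a change of -0.04 in *Mtor-cKO* DRGs (log2; edgeR adjusted p = 0.852) and rose by 0.39 in *Mtorfl/fl* DRGs (adjusted p = 0.017), and the interaction was -0.42 (adjusted p = 0.207). The 12 markers of large myelinated neurons had a median of 0.34, with 11 above and 1 below 0. Of the 12, 1 fell in *Mtor-cKO* DRGs and 5 in *Mtorfl/fl* DRGs, beside 2.38% and 2.58% of all genes tested. *Calb2* (calretinin) had a change of -1.02 in *Mtor-cKO* DRGs (adjusted p = 0.0831) and fell by 1.94 in *Mtorfl/fl* DRGs (adjusted p = 0.0011), and the interaction of 0.92 did not pass (adjusted p = 0.422). For the 7 markers of NP3 itch neurons the median was -0.02, with 4 below and 3 above 0. None of these neuronal markers was called for the interaction.

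Ion channels and receptors that set neuronal excitability gave single genes rather than lists. *Kcnk1*, a leak potassium channel, had a change of -0.02 in *Mtor-cKO* DRGs (log2; edgeR adjusted p = 0.921) and fell by 0.69 in *Mtorfl/fl* DRGs (adjusted p = 0.000453), and the interaction was 0.67 (adjusted p = 0.104). *Gabra5*, a GABA-A receptor subunit, had an interaction of -0.87 (adjusted p = 0.122) and *Slit3*, an axon guidance ligand, 1.14 (adjusted p = 0.0918). Both passed, as did *Kcnk1*, with the term for *Mtorfl/fl* replicates 1 and 2 and in DESeq2. The medians of the potassium channel list (44 genes) and of the sodium and calcium channel list (26 genes) were -0.02 and -0.18, with no call in either.

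The larger sets called with the term for *Mtorfl/fl* replicates 1 and 2 had median responses of opposite sign in the genotypes, which choice by the interaction favours. Over all 13408 genes tested, the 2 responses had opposite signs in 5226. The 419 genes called higher had a median response of 0.47 in *Mtor-cKO* and -0.26 in *Mtorfl/fl* DRGs in the fit with no such term, with opposite signs in 361 of them, and a median genotype difference of 0.42 at day 7 and -0.29 at baseline. Their median transcript length was 4913 bases. The 164 called lower had a median response of -0.24 in *Mtor-cKO* and 0.18 in *Mtorfl/fl* DRGs, opposite in 119, with a median genotype difference of -0.30 at day 7 and 0.11 at baseline, and a median transcript length of 2536 bases. In 468 of the 583 the interaction was under 2-fold. Across all genes tested with a length (98.98%), the Spearman correlation between the interaction and transcript length was 0.13 with all libraries, 0.37 with *Mtorfl/fl* replicates 1 and 2 alone, -0.16 with replicates 3 to 5 alone and -0.00 with the length and GC offset, with which all 583 genes had the same sign and 1 was called. The offset fit reuses the libraries that chose the 583, so the shared sign is a description. The part of transcript length in these calls was not tested further.

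Genes that fell after injury in both genotypes showed no called difference. Of the genes with the lowest p for the average response, *Vstm2b*, a membrane protein, fell by 1.38 in *Mtor-cKO* and 1.88 in *Mtorfl/fl* DRGs (log2; interaction 0.50, edgeR adjusted p = 0.435), and *Nog*, which encodes the BMP antagonist noggin, fell by 0.95 in *Mtor-cKO* and 0.91 in *Mtorfl/fl* DRGs (interaction -0.04, adjusted p = 0.96).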

How the data were processed

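Libraries from L4 and L5 DRGs of 17 mice were sequenced on a BGISEQ-500. The authors deposited a table of expected counts and a table of FPKM per gene and library; the submitters' processing notes name HISAT2 2.0.4, Bowtie2 2.2.5, RSEM 1.2.12 and mm9, whereas the study's methods give GRCm38.p5, so no coordinates were taken from the tables. The deposited expected counts were rounded (34.2% of values were not whole). The deposited FPKM were the authors' values, used for levels, for the filter and, with limma, for the additive scale. In the tables, 8 columns that match no sample used here were left out, as were 2 further FPKM sheets with other library numbers; 1 entry without a name held 0 counts (0%), and 26 symbols altered by a spreadsheet were mended. Totals of 17060876 to 21076542 counts a library limit precision mainly for genes near 0.

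Genes that reached a group mean of 1 FPKM in any of the 4 groups were fitted with edgeR 4.0.16 (TMM, quasi-likelihood, 4 group means; R 4.3.3), and p-values were Benjamini-Hochberg adjusted over all genes tested, with a threshold of 0.05. The study's own tool, DESeq2 1.42.0, limma 3.58.1 on FPKM and other settings were alternatives. Fold changes are log2 of day 7 over baseline. SEs of log2 values are the estimate over the root of its F statistic. SEs of differences in FPKM come from the SDs of the 4 groups, not from the limma fit that gave the p-value. The code was tested on simulated counts. Transcript lengths were GENCODE M21 values, and 16 of 24 genes given in full matched a RefSeq promoter. Named genes were up to 15 called in each direction by p (the first 5 where fewer than 5 passed), the genes the study names, up to 2 of each of 45 lists, and the first 5 of the average response. *Ucn*, *Sgk1*, *Rps6kb2*, *Rragd*, *Lamtor1*, *Akt1s1*, *Calcb* and *Calca* were named outside this rule, after their values were seen. The members and the lists were chosen with earlier results of these data known. Libraries are separate mice, so p-values measure the spread between mice.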

Additional observations from a re-analysis of the deposited data

Results flagged for a closer look

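In 14 of 124 groups checked (31 measures), 1 library lay far from the rest of its group, by a gap rule that chance meets in about 1 in 20 groups. *Mtorfl/fl* day 7 replicate 3 was the high library for 7 genes: *Npy* (332.01 FPKM), *Sprr1a* (1640.86 FPKM), *Atf3* (227.1 FPKM), *Gpr151* (52.43 FPKM), *Fst* (16.78 FPKM), *Inhbb* (8.19 FPKM) and *Masp1* (5.86 FPKM). The others were *Pik3r1* in *Mtorfl/fl* day 7 replicate 5 (32.04 FPKM), *Gal* in *Mtor-cKO* baseline replicate 3 (30.23 FPKM) and *Mtor* in *Mtorfl/fl* baseline replicate 1 (15.97 FPKM). Among summed markers they were pan-neuronal genes in *Mtorfl/fl* day 7 replicate 5 (6400.48 FPKM, low), skeletal muscle in *Mtor-cKO* day 7 replicate 1 (628.53 FPKM) and *Mtor-cKO* baseline replicate 2 (751.31 FPKM), and adipocytes in *Mtorfl/fl* baseline replicate 4 (270.37 FPKM).

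The injury response differed between the genotypes by edgeR's test of the interaction for 11 genes, with log2 values of -1.08 for *Ptpn5*, -0.52 for *0610007P14Rik*, 3.32 for *Lce6a*, 0.95 for *Masp1*, 0.75 for *Megf9*, 0.74 for *Aff1*, 0.67 for *Adgrf5*, 0.57 for *Pik3r1*, 0.57 for *Arhgap31*, 0.56 for *Tacc1* and 0.54 for *Jmjd1c*.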

How the results depend on the processing

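The interaction gave 2 lower and 9 higher calls. Lower and higher calls were 129 and 129 with DESeq2, 9 and 6 with limma on log2(FPKM + 1), 6 and 4 on log2(FPKM + 0.1), 0 and 1 on FPKM, 2 and 3 with edgeR's own count filter, and 1 and 1 with a ratio of responses above 2 also required. Of the alternatives chosen after the data were seen, the term for *Mtorfl/fl* replicates 1 and 2 gave 164 and 419, only those replicates 305 and 311, only replicates 3 to 5 75 and 231, macrophage markers as a covariate 64 and 238, the length and GC offset 1 and 0, and leaving out the 2 muscle-rich libraries 0 and 0. Leaving out 1 library gave 0 to 37 lower and 1 to 82 higher calls: 0 and 1 without *Mtor-cKO* day 7 replicate 1 or 3 or *Mtorfl/fl* day 7 replicate 1, 6 and 16 without *Mtorfl/fl* day 7 replicate 3, 37 and 82 without *Mtorfl/fl* day 7 replicate 5, 13 and 37 without *Mtorfl/fl* baseline replicate 2, and 1 to 3 and 3 to 10 without any of the other 11. The cause was not tested. The 11 called genes kept their sign and an unadjusted p under 0.05 in all of these settings. They were chosen for a low p in these same libraries, so this is a description and adds no support. The average response gave 2 to 6 genes lower than 2-fold with 1 library left out, 7 with only *Mtorfl/fl* replicates 3 to 5 and 25 with the macrophage covariate, and 147 to 258 higher with 1 library left out. *Npy* changed sign to -2.41 with limma on log2(FPKM + 1). With replicate number as a replicate block the calls were 32 and 129, but the numbers do not pair the mice: over 24 same-numbered pairs, deviations correlated between -0.454 and 0.61, 9 of them over 0.1.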
